A study of Arabidopsis thaliana with 6 samples.

Results

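The genes described here, from Arabidopsis thaliana, encode the ER body beta-glucosidase PYK10, the ER body protein NAI2, and 3 jacalin-type lectins, JAL33, JAL34 and AT1G52050. They were taken as every ATH1 probe set that the platform annotation assigns to exactly 1 of these 5 genes, which gave 1 probe set per gene, 5 of the 22746 on the array and 5 of 13286 genes with a probe set of their own. Affymetrix ATH1 arrays were hybridised with total RNA from 3 lib and 3 wild type samples, 1 array each, all of the Columbia-0 ecotype and aged 8 days. The seedlings grew untreated on vertical agar plates with 1% sucrose, with 16 h of light and 8 h of dark. The labels call the samples whole seedlings, while the text on the design gives roots. The title of the series ties lib to a partial lack of isoleucine and to glucosinolate metabolism. The labels give neither the lib allele nor the number of plants per sample, and they call the samples biological replicates without naming separate cultures. The p-values therefore set each difference against the spread between these samples. Those from limma, a linear model fit, also draw on the spread of other probe sets.

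ER bodies are spindle-shaped compartments that bud from the endoplasmic reticulum, mainly in the epidermis of seedlings and in roots. They store beta-glucosidases such as PYK10, an enzyme that can act as a myrosinase, meaning that it cleaves glucosinolates, the defence compounds that give cabbages and mustards their sharp taste. NAI2 is needed for ER bodies to form, and the transcription factor NAI1 drives the expression of PYK10 and NAI2. When tissue is crushed, PYK10 meets cytosolic jacalin-type lectins and forms large aggregates with them, and related lectins bind classical myrosinases.

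Of the 5 genes, 4 were lower in lib and 1 was higher. NAI2, PYK10, JAL33 and JAL34 stood in lib at between 58.0% and 72.4% of their wild type level, while AT1G52050 stood at 244%. Values are MAS5 signals, a summary of the probes that target a gene, on a linear scale unless log2 is named. Each call is an adjusted p under 0.05 from limma over all probe sets. By that rule 20.7% of all probe sets were called, 10.3% lower in lib and 10.4% higher. Among the 3384 probe sets at least as bright as the dimmest of the 5 genes, 20.3% were lower and 22.4% were higher. The median log2 fold change was -0.60 over the 5 genes, -0.04 over all probe sets and 0.03 over those bright ones. The 5 genes were chosen with earlier results of these data known, so this contrast may be set in part by the choice. For each of the 4 lower genes all lib arrays lay below all wild type arrays, as was so for 20.2% of all probe sets, and for AT1G52050 all lib arrays lay above, as was so for 18% of all. None of the 4 fell by 2-fold or more, a size that a called fall reached in 2.5% of all probe sets. Since these are RNA pools of many cells, fewer cells of a type and less RNA per cell cannot be told apart.

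**Figure D1:**
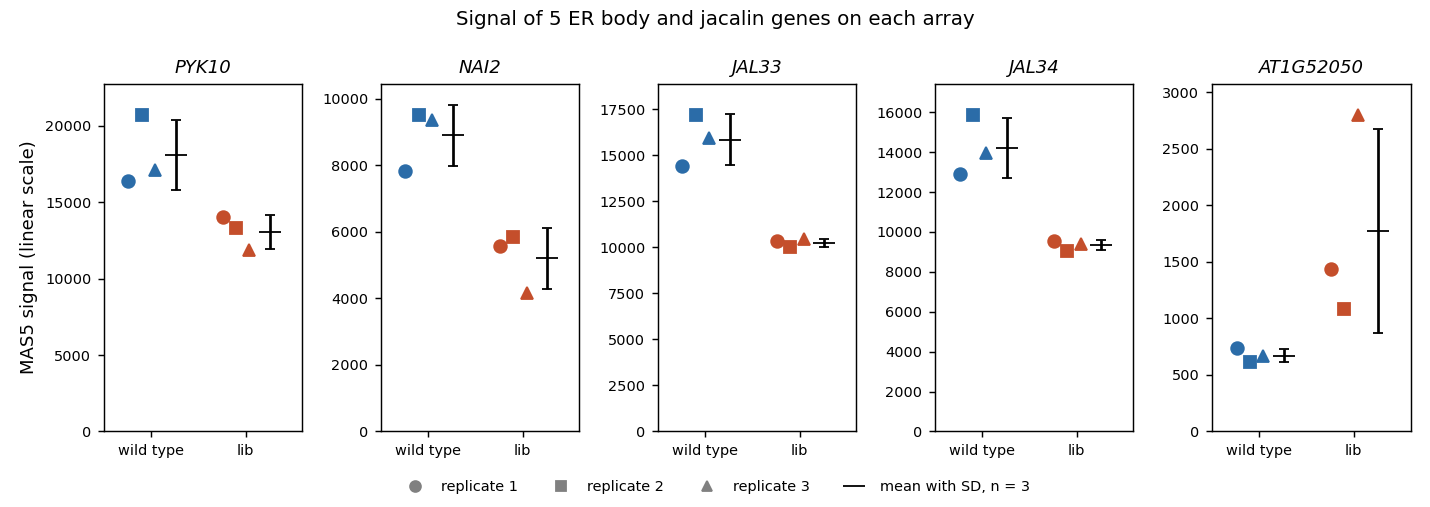
MAS5 signal (linear scale, axis from 0) of the 5 genes on each of the 3 wild type and 3 lib arrays, with the mean and SD (n = 3) beside the points. PYK10, NAI2, JAL33 and JAL34 lie lower on every lib array than on every wild type array, and AT1G52050 lies higher on every lib array, with lib replicate 3 at 2796.

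The stored enzyme, PYK10 (AT3G09260), had signals of 16373, 20685 and 17134 on wild type arrays 1 to 3 and of 14024, 13281 and 11847 on lib arrays 1 to 3. Every lib array lay below every wild type array, and the gap between the nearest arrays of the groups was 0.22 on the log2 scale. Its mean log2 signal was 14.13 ± 0.18 (SD, n = 3) in the wild type and 13.67 ± 0.12 (SD, n = 3) in lib. The log2 fold change was -0.47 (SE 0.14, adjusted p = 0.0393), which places lib at 72.4% of the wild type (95% confidence interval 58.6% to 89.6%). This was the smallest difference of the 5, and its call was lost in 9 of 13 alternative settings, among them each of the 6 in which 1 array was left out (adjusted p 0.0623 to 0.121). PYK10 was also the brightest of the 5, and saturation of its signal was not tested.

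NAI2 (AT3G15950), which organises the compartment that holds PYK10, showed the largest fall of the 5 genes. Its signals were 7830, 9497 and 9349 in the wild type and 5584, 5853 and 4159 in lib. The groups did not overlap, and lib replicate 3 was the lowest of the 6 arrays. The mean log2 signal went from 13.11 ± 0.15 (SD, n = 3) to 12.33 ± 0.27 (SD, n = 3), and the fitted log2 difference was -0.78 (SE 0.15, adjusted p = 0.00621). Lib thus stood at 58.0% of the wild type (95% confidence interval 46.0% to 73.2%). Without lib replicate 3 the log2 fold change was -0.63 (adjusted p = 0.0112), and without the intensity trend in limma the adjusted p was 0.0531.

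JAL33 (AT3G16450) and JAL34 (AT3G16460) are lectins of the jacalin family encoded by neighbouring genes on chromosome 3, next to each other in the TAIR10.1 gene table. JAL33 had signals of 14451, 17185 and 15951 in the wild type and of 10339, 10017 and 10438 in lib. JAL34 had signals of 12881, 15850 and 13937 in the wild type and of 9541, 9056 and 9397 in lib. For both lectins the lib arrays lay close together and well below the wild type arrays, which were more spread. The SD over lib arrays was 0.03 for JAL33 and 0.04 for JAL34 on the log2 scale, against 0.13 and 0.15 over wild type arrays.

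The log2 fold change of JAL33 was -0.62 (SE 0.11, adjusted p = 0.00529), or 64.9% of the wild type (95% confidence interval 54.3% to 77.5%). That of JAL34 was -0.60 (SE 0.12, adjusted p = 0.00693), or 65.8% (95% confidence interval 54.9% to 79.0%). These calls held in all 13 alternative settings, with adjusted p-values up to 0.0322 for JAL33 and 0.0388 for JAL34. For each of the 4 lower genes, wild type replicate 2 was the highest array and wild type replicate 1 the lowest of its group.

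AT1G52050, a jacalin-type lectin of chromosome 1, went the other way. Its signals were 734, 614 and 666 in the wild type and 1440, 1087 and 2796 in lib. The groups did not overlap, but lib replicate 3 stood far above the other lib arrays, and the range within lib was 1.36 on the log2 scale against 0.26 within the wild type. The mean log2 signal rose from 9.39 ± 0.13 (SD, n = 3) to 10.68 ± 0.70 (SD, n = 3), and the fitted log2 difference was 1.29 (SE 0.28, adjusted p = 0.0123). Without lib replicate 3 it was 0.90 (SE 0.14, adjusted p = 0.00641). The call was lost without wild type replicate 2 (adjusted p = 0.0534), without wild type replicate 3 (adjusted p = 0.0505) and without the intensity trend (adjusted p = 0.0862).

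**Figure D2:**
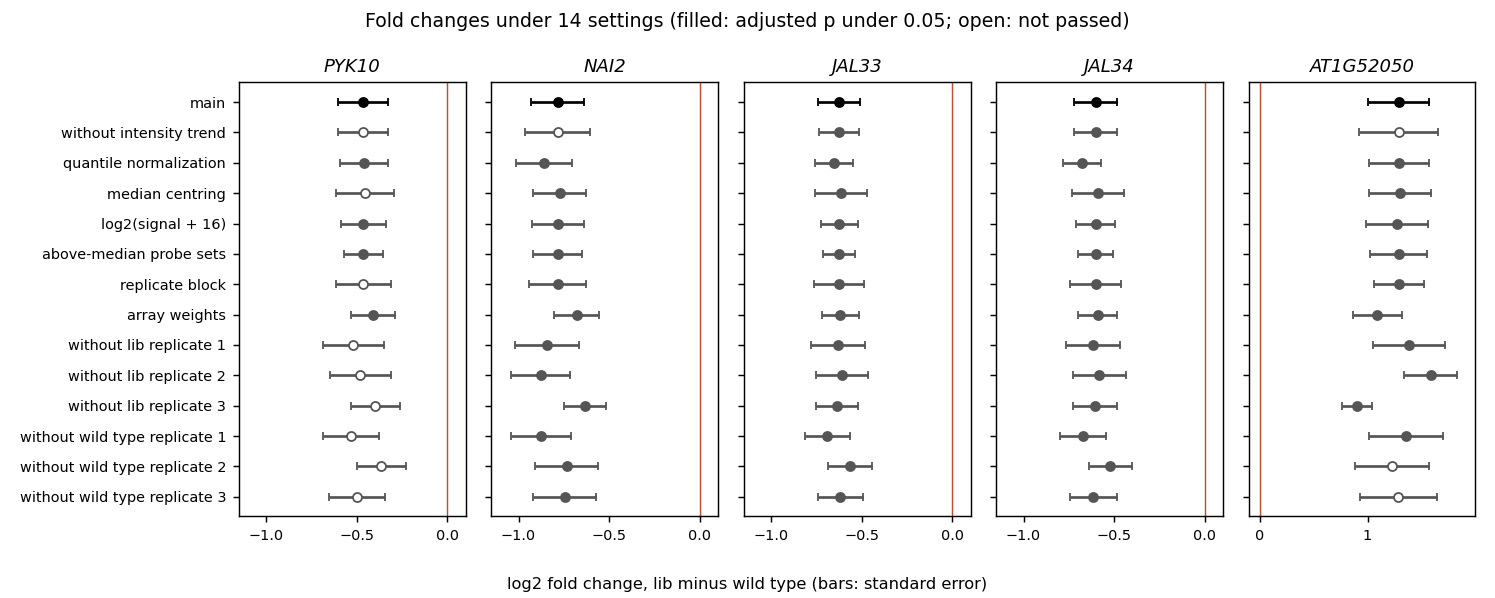
Log2 fold change (lib minus wild type, with its standard error as bar) of each of the 5 genes under the main setting and 13 alternatives; filled points have an adjusted p under 0.05 and open points do not. The sign is the same in every setting for every gene, and the open points are mostly those of PYK10, which lost its call in 9 of 13.

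The authors' deposited table, which holds its own comparison of these arrays, gives a ratio of lib to wild type of 0.722 for PYK10, 0.585 for NAI2, 0.647 for JAL33 and 0.656 for JAL34. For AT1G52050 the authors' deposited table gives a ratio of 2.64. Its unadjusted p in the authors' deposited table is 0.0812, while those of the 4 lower genes lie between 0.00977 for JAL33 and 0.0255 for PYK10. When the p-values of the authors' deposited table are adjusted by the Benjamini-Hochberg method, none of the 5 lies under 0.05, and the lowest is 0.109 for JAL33.

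Whether the 5 genes differed among themselves was asked with the log2 ratio of their signals within each array, over all 10 pairs. With 3 arrays against 3, an exact permutation test cannot give a p below 0.1, so no pair could pass. Signals of different probe sets are not on a common scale, so only the change of a ratio between genotypes can be read. JAL33 over JAL34 moved least, with a difference between lib and wild type of -0.02 on the log2 scale, and the differences between single lib and wild type arrays ran from -0.08 to 0.03. The ratio of PYK10 to NAI2 was 1.02 ± 0.13 (SD, n = 3) in the wild type and 1.34 ± 0.16 (SD, n = 3) in lib on the log2 scale, and the groups did not overlap (two-sided exact permutation p = 0.1, adjusted over the pairs 0.2). The differences between single arrays for this ratio ran from 0.06 to 0.64. The other pairs among the 4 lower genes overlapped between groups, with differences of up to 0.18 in size. The ratios to AT1G52050 differed by 1.75 to 2.07 in size between the groups, and their separation follows from the opposite directions already given.

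The remaining ER body genes were dimmer or less changed. In a list of 16 loci for ER body glucosidases, structural proteins, partners and the regulator NAI1, 6 were measured. Of these 3 were lower, none higher and 3 did not pass, beside 10.3% lower among all probe sets. The 3 lower genes are bright, and among probe sets at least as bright as AT1G52050 20.3% were lower. PYK10 and NAI2 are among the 3 lower genes, and of the 4 other measured genes 1 was lower. The median log2 fold change of the 6 was -0.62. This value falls between those of NAI2 and PYK10, with BGLU19 and ATA27, both near the floor, below them. It therefore says nothing beyond NAI2 and PYK10 themselves. The third lower gene was AT3G20370, which encodes a TRAF-like protein, with signals of 4425, 4828 and 4528 in the wild type and 3744, 3399 and 3837 in lib. Its log2 fold change was -0.33 (SE 0.09, adjusted p = 0.0356). Over 13 settings this value stayed between -0.36 and -0.28, but the call was lost in 8, and the list held 1 lower gene without lib replicate 2 or without any 1 of the wild type arrays.

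NAI1 (AT2G22770), the regulator, did not pass. Its signals of 387, 541 and 476 in the wild type overlapped those of 433, 377 and 400 in lib. The log2 fold change was -0.20 (SE 0.14, adjusted p = 0.352), and the 95% confidence interval of the lib level ran from 69.9% to 108% of the wild type. The glucosidases BGLU19 and ATA27 had signals near the floor of the scale. BGLU19 lay at 4.72 to 15.7 in the wild type and 1.00 to 1.75 in lib (adjusted p = 0.0543), and ATA27 at 14.5 to 19.4 and 1.66 to 11.1 (adjusted p = 0.0921).

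**Figure D3:**
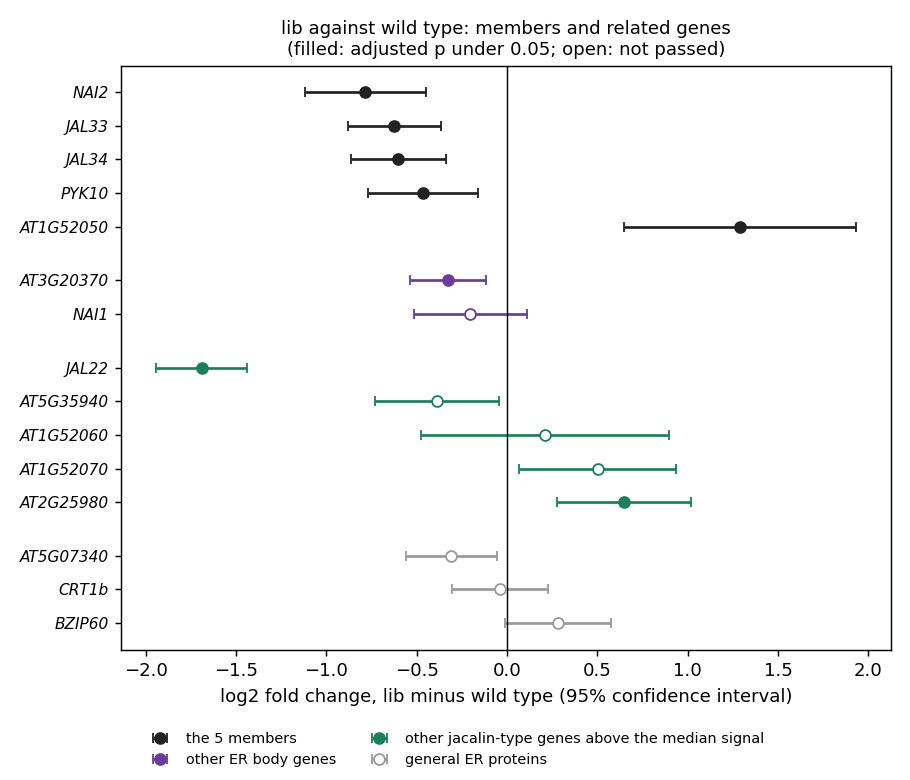
Log2 fold change, lib minus wild type, with its 95% confidence interval, of the 5 genes, the other ER body genes AT3G20370 and NAI1, other jacalin-type genes above the median signal, and general ER proteins (the dim BGLU19 and ATA27 are not drawn); filled points have an adjusted p under 0.05. Of the genes drawn, JAL22 at -1.69 lies furthest to the left and AT1G52050 at 1.29 furthest to the right.

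Among the jacalin lectins, some measured genes were lower in lib and others higher. Of 8 loci whose names in the gene table mark them as jacalin-related, 4 were measured and 3 were lower, beside 10.3% among all probe sets. The 3 lower genes are bright, and among probe sets at least as bright as AT1G52050 20.3% were lower. Of the 2 measured jacalin-related loci outside the 5 genes, 1 was lower. The third beside JAL33 and JAL34 was JAL22 (AT2G39310), a jacalin-related lectin of chromosome 2, with signals of 7011, 8016 and 8095 in the wild type and 2573, 2487 and 2113 in lib. Its log2 fold change of -1.69 (SE 0.11, adjusted p = 0.000100) was larger than that of any of the 5 genes. It kept its call in all 13 settings, and lib stood at 31.0% of the wild type (95% confidence interval 26.0% to 36.8%). JAL23, the fourth, was dim, with signals of 7.20 to 25.8 over the 6 arrays, and did not pass (0.23, adjusted p = 0.843).

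In a longer list of 46 jacalin-type loci, compiled from the known gene family, 21 were measured: 3 were lower, 3 were higher and 15 did not pass. These counts are read against the 10.3% lower and 10.4% higher among all probe sets, and nothing particular to the family is drawn from them. The median was -0.39, with 13 of the 21 at or below the median signal of all probe sets, and among the 8 brighter ones it was -0.09. The 3 lower genes are JAL22, JAL33 and JAL34. The other 2 that rose beside AT1G52050 are AT2G25980 and AT1G33790, and the count of higher genes was 1 without wild type replicate 2 or without wild type replicate 3. AT2G25980 had signals of 1496, 1181 and 1400 in the wild type and 1996, 1737 and 2743 in lib, with a log2 difference of 0.65 (SE 0.16, adjusted p = 0.0230). Its call was lost in 4 of 13 settings. AT1G33790 had signals of 74.2, 109 and 111 in the wild type and 250, 219 and 208 in lib, with a log2 difference of 1.22 (SE 0.20, adjusted p = 0.00349).

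The genes AT1G52060 and AT1G52070, also jacalin-type lectins, follow AT1G52050 directly in the gene table. AT1G52060 had signals of 1205, 1057 and 854 in the wild type and 1061, 769 and 2061 in lib, and did not pass (0.21, SE 0.30, adjusted p = 0.690). AT1G52070 had signals of 1746, 2038 and 1843 in the wild type and 2623, 1956 and 3620 in lib, and did not pass either (0.50, SE 0.19, adjusted p = 0.101). In both, as in AT1G52050 and AT2G25980, lib replicate 3 was the highest of the 6 arrays and lib replicate 2 the lowest of its group. The same lib replicate 3 was the lowest of the 6 for PYK10, NAI2 and JAL22. It has the lowest limma array weight, 0.507, and its part in these values was not tested beyond leaving it out: 3 of the 5 genes were then lower, 1 was higher, and 3 jacalin genes were still lower and 3 higher. Without it the log2 fold change of AT2G25980 was 0.46 (adjusted p = 0.0428).

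**Figure D4:**
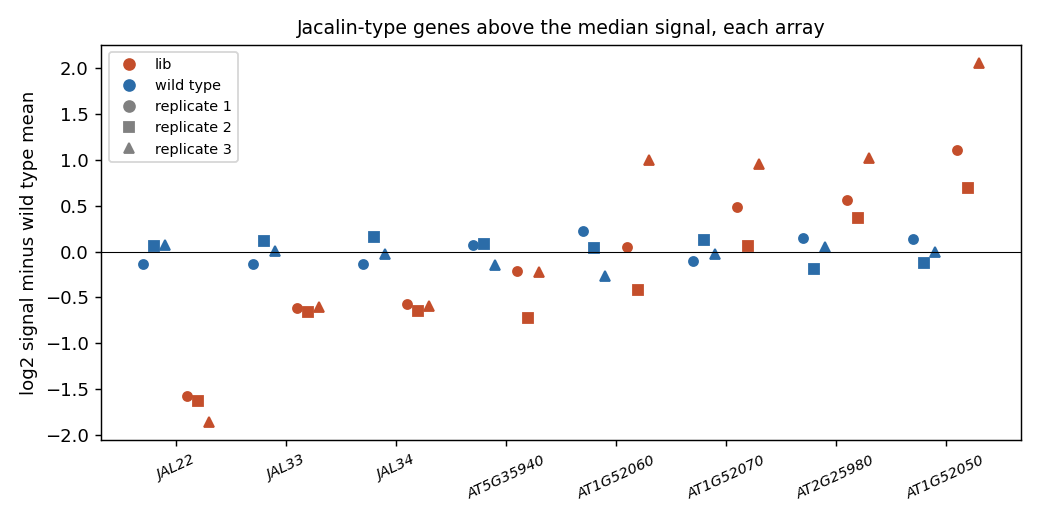
Log2 signal on each array, relative to the wild type mean of the gene, for the 8 jacalin-type genes above the median signal, ordered by fold change; colours mark the genotype and symbols the replicate number. JAL22, JAL33 and JAL34 sit below the wild type on all 3 lib arrays, and lib replicate 3 is the highest array for AT1G52060, AT1G52070, AT2G25980 and AT1G52050.

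Position on the chromosome was also described. Of the 40 other genes within 5 protein-coding genes of any of the 5, on either side, 17 had a probe set of their own. None of the 17 was lower and 3 were higher, with a median log2 fold change of 0.21, beside 10.3% lower and 10.4% higher among all probe sets, so these counts are no result about the neighbourhood. The 3 lie beside PYK10 and were named after their values were seen: AT3G09250 at 0.60, AT3G09280 at 2.10 and TAC1, a zinc finger factor linked to telomerase, at 0.82. AT3G09280 was dim, with signals of 5.42 to 25.5 in the wild type and 47.5 to 55.5 in lib (SE 0.56 on the log2 scale).

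The pattern of each gene over the 6 arrays was set against 6052 other probe sets of 1 gene above the median signal, by Pearson correlation. These correlations share the difference between the groups, so they are a description only. The nearest to JAL34 was JAL33 (r = 0.996), followed by AT1G73760 and ATSRL1 (both 0.993). The nearest to JAL33 was ATSYTF (r = 0.998), followed by JAL34 (0.996) and GID1C, a gibberellin receptor (0.995). For PYK10 the nearest were AT2G20740 (0.998), AT4G13530 (0.993) and CPNIFS (0.993). For NAI2 they were AT1G24560 (0.997), AT1G28400 (0.996) and NTMC2T6.1 (0.996). For AT1G52050 they were AT4G10140 (0.997), AT4G27270 (0.996) and AT1G32190 (0.994). PYK10 correlated with JAL34 at 0.951 (rank 73 of 6052), with NAI2 at 0.945 (rank 88) and with JAL33 at 0.930 (rank 142). Seen from the other genes, PYK10 ranked 164 for JAL34, 251 for NAI2 and 340 for JAL33. From NAI2, JAL33 ranked 502 and JAL34 517.

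**Figure D5:**
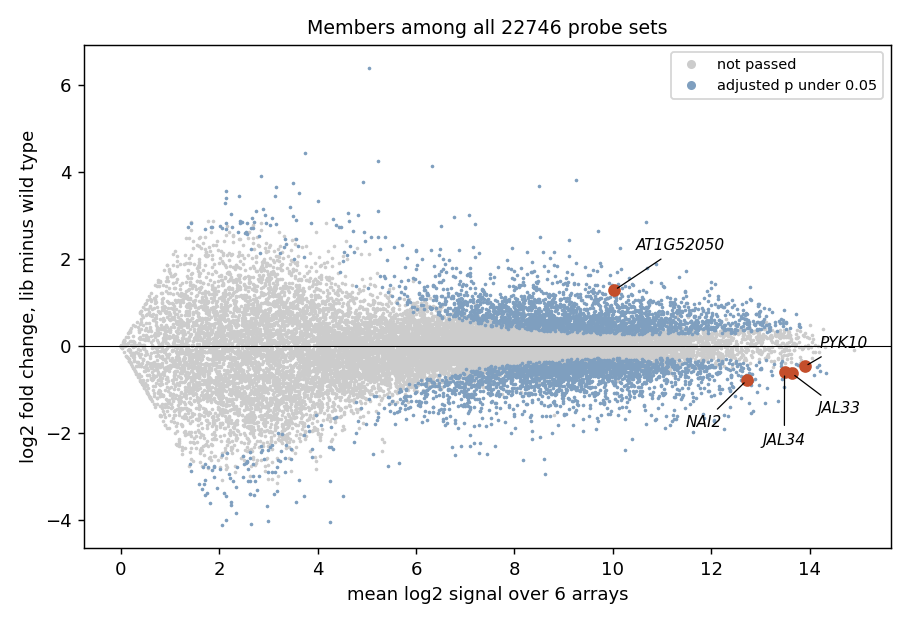
Mean log2 signal over 6 arrays against log2 fold change, lib minus wild type, for all 22746 probe sets, with those under an adjusted p of 0.05 in blue and the 5 genes in red. PYK10, NAI2, JAL33 and JAL34 lie at the bright end below 0, and AT1G52050 lies above 0 at a mean of 10.03.

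General ER proteins and tissue markers were read on the same arrays. Of 14 loci for ER chaperones, lectin chaperones and their regulators, 3 were measured and none passed (1 did, lower, with array weights): AT5G07340, a calnexin, at -0.31 (adjusted p = 0.0831), BZIP60, a factor of the unfolded protein response, at 0.28 (adjusted p = 0.164) and CRT1b, a calreticulin, at -0.04 (adjusted p = 0.859). At an unadjusted p under 0.05, AT5G07340 would be counted. As tissue, the samples are labelled whole seedlings, but roots are given in the text on the design. PYK10 is itself used as a root marker. The other 2 measured root markers of 4, EXPA7 and EXPA18 of root hair cells, did not pass, at 0.20 and -0.0040, and their summed signal ran from 1434 to 1695 over lib arrays and from 1213 to 1902 over wild type arrays. The 4 measured shoot markers of 6 had a summed signal from 1092 to 1492 over lib arrays and from 1658 to 2636 over wild type arrays. Most of that sum is the signal of LHCB4.1 and RCA. These 2 were lower, at -0.62 each (adjusted p = 0.0376 and 0.0493), beside 10.3% lower among all probe sets. PRK at -0.70 and SBPASE at -0.28 did not pass. None of these markers had a log2 signal of 0 on any array, and the part of tissue make-up in the falls was not tested. Embryo markers and classical myrosinases, specifier proteins and myrosinase-binding proteins, lists of 4 and 16 loci, were not analysed here, since the annotation ties none of them to a probe set of its own.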

How the data were processed

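Per the submitters' processing notes, the authors made the array values with MAS5 (its version is not given in the sources used here). The deposited values are log2 signals, 1 array per sample, and were used with no further normalization. The median log2 signal per array was 7.40 to 7.52 and the highest 14.73 to 15.00; the number of arrays limits the precision, and saturation was not tested. A further deposited table holds the authors' unadjusted p-value and the ratio of lib to wild type; each ratio of the 5 genes equals that of the mean linear signals. The columns of all 6 arrays were mapped through their names.

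Names came from the platform annotation (13513 with 1 gene, 503 with several, 8730 probe sets with none), with symbols and gene order from the TAIR10.1 gene table. Files give no genome build, so no coordinates are printed. lib was compared with wild type in limma 3.58.1 (R 4.3.3; lmFit, eBayes with an intensity trend, two-sided), over all 22746 probe sets, with Benjamini-Hochberg adjustment and a threshold of 0.05; the fit was tested on simulated data. Exact permutation tests used scipy 1.17.1. The members and lists were chosen with earlier results of these data known; the longer jacalin list and the neighbours were added after it was seen which loci the annotation covers. The naming rule covered the 5 genes, the measured loci of the ER body, jacalin and myrosinase lists, up to 4 general ER genes of smallest p (3 were measured) and, per gene, the 3 most similar probe sets. Alternatives are given in the closing section.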

Additional observations from a re-analysis of the deposited data

How the results depend on the processing

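The 5 genes kept their sign in all 13 alternatives. Without the intensity trend, 2383 probe sets were called in place of 4708, 2 of the 5 genes were lower and 0 higher, with adjusted p-values of 0.0964 for PYK10 (-0.47), 0.0531 for NAI2 (-0.78) and 0.0862 for AT1G52050 (1.29), and the ER body list had 1 lower gene and the longer jacalin list 1 higher. After median centring PYK10 stood at -0.45 (adjusted p = 0.0736) and the ER body list at 1 lower gene. With the replicate number as a block PYK10 stood at -0.47 (adjusted p = 0.0856), the ER body list at 1 lower gene and all probe sets at 3442 calls. No other call on the 5 genes changed with the block. The numbers are not known to pair the samples: the deviations of same-numbered arrays correlated at 0.0474, -0.202 and -0.225. With array weights, 1 general ER gene was lower. At an adjusted p under 0.01, chosen after seeing the data, 2257 probe sets were called, 0 of the 5 genes were higher, and PYK10 (-0.47) and AT1G52050 (1.29) did not pass.

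Leaving out 1 array at a time gave 2705 to 3747 calls over all probe sets, lowest without lib replicate 1. It gave log2 fold changes of -0.53 to -0.36 for PYK10, -0.88 to -0.63 for NAI2, -0.69 to -0.56 for JAL33, -0.67 to -0.52 for JAL34 and 0.90 to 1.58 for AT1G52050. Of the 5 genes, 3 were lower and 0 to 1 higher; the ER body list had 1 to 2 lower genes and the longer jacalin list 3 to 4 lower and 1 to 4 higher. The higher count was 0 for the 5 genes and 1 for the jacalin list without wild type replicate 2 and without wild type replicate 3. MAS5 scatter limits dim genes such as BGLU19, ATA27 and JAL23.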
